A study of Mus musculus with 2 samples.

Results

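Mir140 and Mir455 are microRNA genes best known from cartilage, and their hairpins were measured here in the mouse heart. They are 2 of the 2202 annotated hairpins in the deposited tables. They were chosen by gene symbol and matched by Ensembl gene identifier, at a time when their levels and the difference between the libraries were already known. Those values are therefore given as a description, without a test.

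Heart tissue came from 2 females of the strain B6CASTF1/J (a hybrid from The Jackson Laboratory) at 25 days of age, and the libraries are biological replicates 2 and 1. The age is that of the age field, and a free-text label gives the same number in months. The libraries form 1 group, and no treatment or second condition is named for it. The sample notes number the animals separately although both carry the same donor identifier, so the spread between replicates rests on reading them as separate animals. MicroRNA-seq counts short RNA fragments, and each count here is a read assigned to a hairpin, the folded precursor that is cut into mature microRNAs. The hairpins together took 2661090 reads of replicate 2 and 2050498 reads of replicate 1. Levels are given as CPM, a hairpin's count divided by that sum on the usual scale, and 3 counts correspond to 1.13 CPM in replicate 2 and 1.46 CPM in replicate 1. The heart label was met by the myosin-hosted hairpins Mir208a and Mir499, but not by every muscle hairpin. Mir208a had 5862 CPM in replicate 2 and 1620 CPM in replicate 1. Mir499 had 2317 CPM in replicate 2 and 2629 CPM in replicate 1. Mir208b had 112 CPM in replicate 2 and 191 CPM in replicate 1. The muscle hairpin Mir1a-2 had 11.6 CPM in replicate 2 and 45.8 CPM in replicate 1. Counts in replicate 2 and replicate 1 were 8 and 3 for Mir133a-1, 7 and 8 for Mir133a-2 and 8 and 8 for Mir133b. These counts were 7 and 5 for Mir206 and 1 and 3 for Mir1a-1. Reads matching several places are not counted, so low counts of numbered copies such as Mir133a-1 need not mean low levels.

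A microRNA guides a protein complex to messenger RNAs that pair with its seed, bases 2 to 8 of the mature strand, and lowers their output. In mice, loss of Mir140 shortens bones that grow through cartilage, and the cartilage regulator Sox9 promotes its transcription together with Wwp2. Mir455 lies in Col27a1, a collagen gene of cartilage, and in mice it has also been linked to the formation of brown fat cells. Neither the host messenger RNAs nor protein markers of cartilage were measured here, so the cartilage link is background and not a result of these libraries.

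The mature strands are shown because their seeds define what each microRNA pairs with. They are RefSeq sequences on GRCm38.p6, written 5′ to 3′ with the seed in capitals, and 4 entries matched the members by symbol.
miR-140-3p: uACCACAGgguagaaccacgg
miR-455-5p: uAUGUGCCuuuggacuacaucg
miR-455-3p: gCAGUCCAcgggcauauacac
The other strand of Mir140 is miR-140-5p. The Mir140 hairpin follows, with miR-140-3p, its bases 45 to 65, in capitals.
Mir140 hairpin: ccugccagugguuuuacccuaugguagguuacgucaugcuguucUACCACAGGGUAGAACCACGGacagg

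The 3 seeds differ from one another. The longest run of bases that miR-140-3p shares is 6 nt with miR-455-3p and 3 nt with miR-455-5p. Among the 1738 mature strands of the RefSeq table, the seed of miR-140-3p recurs in 1 other, miR-497b, and that of miR-455-5p in 1 other, miR-5129-3p. The seed of miR-455-3p recurs in 0 others. The strands that share a seed are printed so that the rest of each can be compared.
miR-497b: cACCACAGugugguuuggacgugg
miR-5129-3p: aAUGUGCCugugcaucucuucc
Mir497b had 0 counts in replicate 2 and 1 count in replicate 1, and Mir5129 had 3 counts in replicate 2 and 0 in replicate 1. Of the hairpins found to carry these seeds, Mir140 and Mir455 therefore held nearly all counts in both hearts. A hairpin count does not tell which mature strand was read, and the seed of miR-140-5p was not compared.

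The Mir140 hairpin was compared with the other entries of the sequence table, and for Mir455 the mature strands alone were compared. The longest run that the Mir140 hairpin shares with another entry is 11 nt, in the same orientation. For miR-455-5p it is 11 nt and for miR-455-3p 10 nt. Reads matching several places enter no hairpin count, and their share of the reads was 41.6% in replicate 2 and 38.5% in replicate 1. Sequence outside the table was not searched.

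Both hairpins sit alone inside large genes and on the strand of their host (mm10, GENCODE M21). Mir140 (ENSMUSG00000065439.1) spans 70 bases at chr8:107551244-107551313 on the plus strand, within Wwp2, the gene of a ubiquitin ligase. It lies 115 kb from the start of this 122 kb gene, in intron 16 of the transcript Wwp2-201. That intron is 2141 bases long, and the hairpin starts 1109 bases after the upstream exon. The hairpin also falls inside an exon of a further Wwp2 transcript, annotated as a retained intron. Mir455 (ENSMUSG00000070102.1) spans 82 bases at chr4:63256851-63256932 on the plus strand, 42.8 kb into the 121 kb gene Col27a1. It occupies intron 10 of Col27a1-201 and ends 128 bases before the next exon. No other annotated hairpin lies within 10 kb of either, the nearest being 290 kb from Mir140 and 4376 kb from Mir455.

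**Figure D1:**
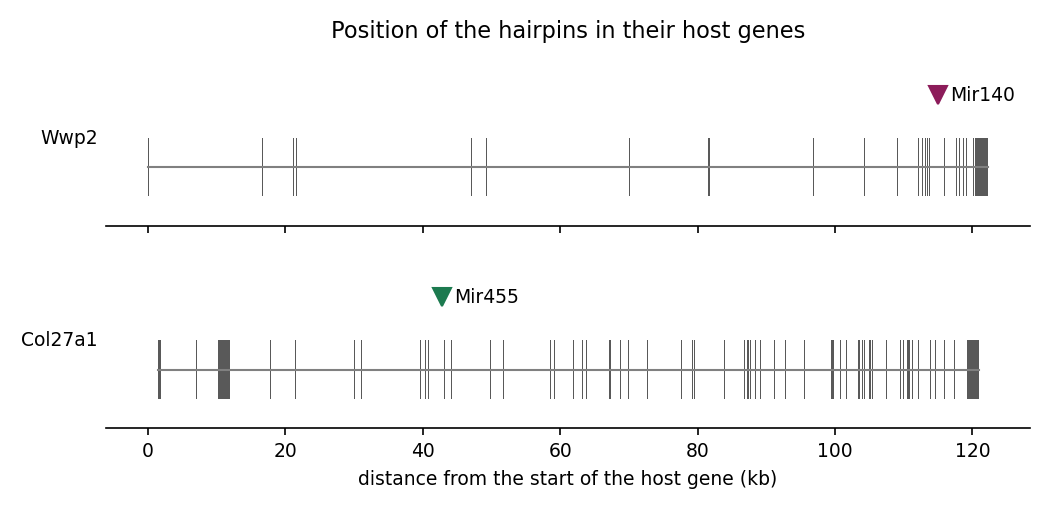
Exons (grey boxes) of the transcripts Wwp2-201 and Col27a1-201 along the distance from the start of each host gene, in kb, with the hairpins as triangles. Mir140 sits at 115 kb, near the end of Wwp2, and Mir455 at 42.8 kb in Col27a1.

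Mir140 was among the more abundant hairpins of the heart by these counts, which leave out reads matching several places. It had 17023 counts in replicate 2 and 3621 counts in replicate 1. On the CPM scale its level was 6397 in replicate 2 (95% Wilson interval 6302 to 6494). In replicate 1 it was 1766 (1709 to 1824). Such intervals reflect counting alone, since reads copied by PCR from 1 molecule are not separated in these data. The level was higher in replicate 2, and the mean of 4081 CPM carried an SD of 3275 CPM (n = 2), or 80.2% of the mean. It ranked 22 of 2202 hairpins in replicate 2 and 44 in replicate 1. Its share of hairpin counts was 0.640% in replicate 2 and 0.177% in replicate 1. In bulk tissue, fewer cells of a type and less RNA per cell cannot be told apart.

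Mir455 was lower than Mir140 in both hearts and much closer between them. It had 2873 counts in replicate 2 and 2382 counts in replicate 1. Its level was 1080 CPM in replicate 2 (95% Wilson interval 1041 to 1120), against 1162 CPM in replicate 1 (1116 to 1209). Its mean was 1121 ± 58.0 CPM (SD, n = 2), so the SD was 5.18% of the mean. Its rank was 61 in replicate 2 and 63 in replicate 1. The Wilson intervals of the libraries overlapped for Mir455 and lay far apart for Mir140, but they do not measure spread between animals.

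Reads at both genes came from the strand of the hairpin. The columns for the opposite strand held 0 counts for either hairpin in either library. A count of 0 allows up to 3 reads, or 0.0176% of the Mir140 count and 0.104% of the Mir455 count in replicate 2, and 0.0829% and 0.126% in replicate 1. The column counted without regard to strand gave the same counts for both hairpins in both libraries.

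The division of reads between the pair differed between the hearts, and this measure needs no scaling between libraries. Mir140 made up 85.6% of the 19896 counts of the pair in replicate 2 (95% exact binomial interval 85.1 to 86.0). In replicate 1 it made up 60.3% of 6003 counts (59.1 to 61.6). Both intervals reflect counting alone. The mean share was 72.9% ± 17.8 (SD, n = 2). Mir140 counts were 5.93 times those of Mir455 in replicate 2 and 1.52 times in replicate 1. Per base of hairpin, which reads of cut strands need not follow, the ratios were 6.94 in replicate 2 and 1.78 in replicate 1. Mir140 was the higher of the pair in both hearts on either scale.

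**Figure D2:**
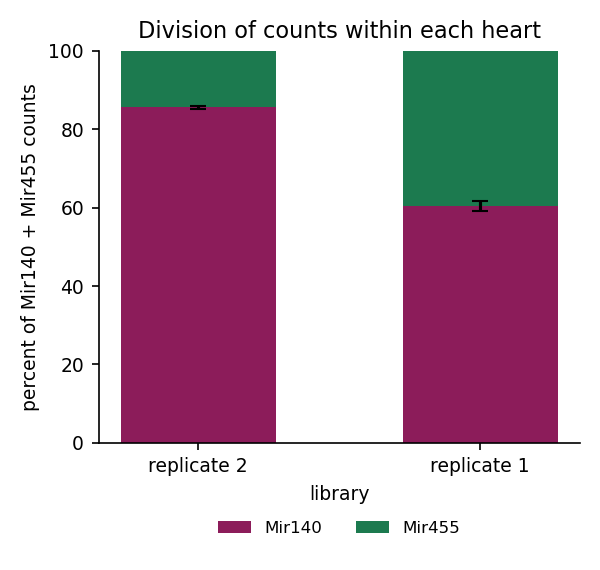
Percent of the summed Mir140 and Mir455 counts that fell on each hairpin in replicate 2 and replicate 1, with 95% exact binomial intervals (black bars). Mir140 held 85.6% in replicate 2 and 60.3% in replicate 1.

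The comparison of the hearts asked how far each hairpin varied between animals of the same labelled strain, sex and age. It covered 326 hairpins, those that reached 10 counts in either library. Ratios are log2 of replicate 2 over replicate 1, on CPM scaled by TMM (a factor that aligns the bulk of hairpins between libraries) plus 1. Mir140 had a log2 ratio of 2.09 (95% exact binomial interval 2.04 to 2.14). It ranked 10 from the top of the 326, and 5 from the top of the 223 hairpins left at a minimum of 50 counts. Mir455 had a log2 ratio of 0.12 (0.05 to 0.20) and ranked 151 of the 326. The sign of the Mir455 ratio depended on the scaling, since total hairpin count gave -0.11 (-0.18 to -0.03). All these ratio intervals reflect counting alone and do not measure spread between animals. Over all 326 hairpins the median was 0.09 with TMM and -0.14 with total count. Relative to that median, Mir140 stood at 2.00 under both scalings and Mir455 at 0.04 with TMM and 0.03 with total count. A change of scaling shifts all hairpins together, so these distances could hardly differ and are no check of the scaling.

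A difference of at least 2-fold was common between these libraries. With TMM, 13.8% of the 326 hairpins were at least 2-fold higher in replicate 2 and 13.8% were at least 2-fold lower, 45 in each direction. Total count gave 32 higher and 58 lower. In either direction the share was 27.6% with TMM, Mir140 among them and Mir455 not. With 1 sample for each side of the ratio, no replicate check of a single hairpin was possible.

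Hairpins of like abundance gave a closer background for each of the pair. Of the 25 hairpins with a mean CPM within 2-fold of it, 7 differed at least 2-fold, 4 of them higher in replicate 2, and 3 had a larger difference than Mir140. Their median absolute log2 ratio was 0.57. Of the 39 hairpins within 2-fold of Mir455, 8 differed at least 2-fold and 33 had a larger difference than Mir455, with a median absolute log2 ratio of 0.50. In this pair of hearts, Mir455 differed less than most hairpins at its level.

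**Figure D3:**
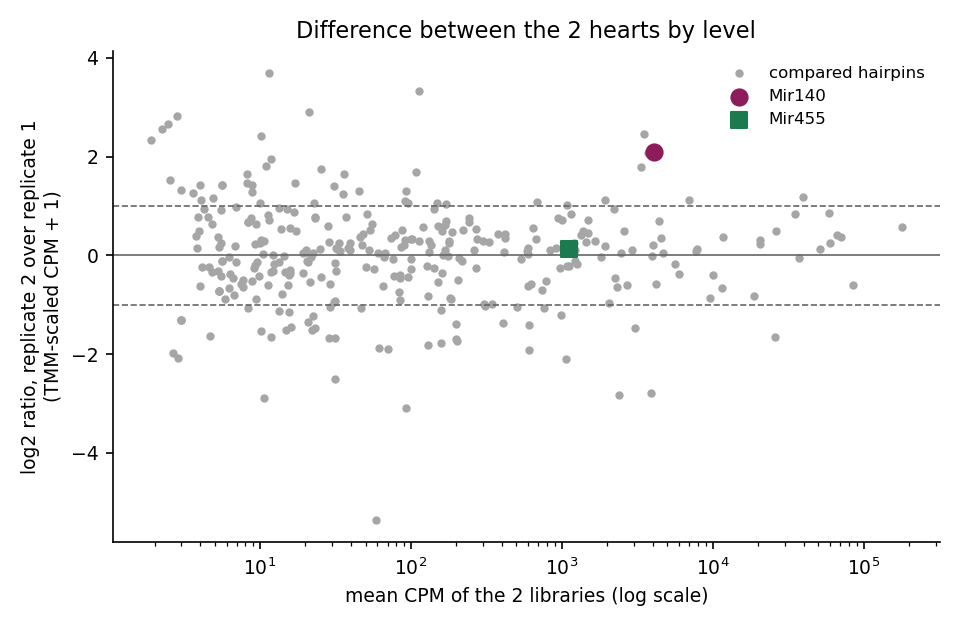
Log2 ratio of replicate 2 over replicate 1 (TMM-scaled CPM plus 1) against the mean CPM of the libraries on a log axis, for the 326 compared hairpins, with dashed lines at 2-fold. Mir140 lies at 2.09 and Mir455 at 0.12.

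The hairpins nearest in level belong to other families. Directly above Mir140 in mean CPM were Mir151 (4568), Mir322 (4391) and Mir29a (4229), the last known for restraining collagen genes. Directly below it were Mir93 (4031), Mir744 (3979) and Mir195a (3886), a member of the cell cycle family of miR-15. Their log2 ratios ranged from -2.78 for Mir195a to 0.70 for Mir322, all below that of Mir140. Around Mir455 lay Mir17, Mir107 and Mir324 above and Mir221, Mir185 and Mir15a below. Mir15a was the widest of these, with a log2 ratio of -2.09, and Mir221 was next in size at 1.01.

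Likeness of pattern could be judged only by the size of the ratio, over 2 libraries and among hairpins with at least 100 counts in 1 of them. Closest to Mir140 was Mir208a, carried in the heart myosin gene Myh6, with 15598 counts in replicate 2, 3322 counts in replicate 1 and a log2 ratio of 2.08. Mir351, of the X-linked group that holds Mir322, followed at 1.79, and Mir543 at 1.74. Closest to Mir455 were Mirlet7b and Mir652, each at 0.12, and Mir542 at 0.14.

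Other microRNAs known from cartilage or bone cells did not share 1 pattern. The list holds 18 symbols, of which 17 were matched by symbol and 12 were compared, Mir140 and Mir455 included. At least 2-fold higher in replicate 2 were 5 of the 12, Mir140 among them, and 1 was at least 2-fold lower. Over all compared hairpins the share was 13.8% in each direction. The list was written with earlier results of these data known, so its counts are a description and not evidence of an excess. The median log2 ratio of the list was 0.50, beside 0.09 over all compared hairpins. Without the pair it was 0.50 over 10 hairpins, with 4 higher and 1 lower. Mir146a is annotated as Mir146, by its RefSeq synonym and position, and had 2881 counts in replicate 2 and 2814 counts in replicate 1 (log2 ratio -0.11). With it, an addition made after the data were seen, the median was 0.29 over 13 hairpins, with 5 higher and 1 lower. Passing the count minimum depended on the higher library for Mir1247 and Mir211, so these counts describe the hairpins compared and not the whole list.

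The list members at least 2-fold apart had mixed roles and did not all differ in the same direction. Mir145a, which acts on SOX9 in human chondrocytes and marks smooth muscle, had 15387 counts in replicate 2 and 2534 counts in replicate 1 (log2 ratio 2.46). Mir204, a regulator of the bone factor Runx2, had 338 counts in replicate 2 and 122 counts in replicate 1 (1.31). Mir1247 had 16 counts in replicate 2 and 4 in replicate 1, and Mir211, of the same family as Mir204, had 14 counts in replicate 2 and 4 in replicate 1. Mir1247 and Mir211 were chosen for naming after their values were seen. Mir214, a repressor of bone formation found in fibroblasts, was lower, with 1353 counts in replicate 2 and 8717 counts in replicate 1 (-2.83).

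The other list members that reached 10 counts in both libraries differed by less than 2-fold. Mir27b, which acts on the collagenase gene MMP13 in human chondrocytes, had 4834 CPM in replicate 2 and 6407 CPM in replicate 1. Mir322 had 5106 CPM in replicate 2 and 3675 CPM in replicate 1. Mir193b had 115 CPM in replicate 2 and 110 CPM in replicate 1, with an SD of 3.64 CPM. Mir138-1 and Mir138-2 stood between 11.6 and 17.6 CPM in both hearts. By mean CPM, Mir140 ranked 3 and Mir455 ranked 6 of the 10 members that reached this minimum. At the low end, Mir675, a chondrocyte microRNA from the H19 gene, had 1 count in replicate 2 and 3 counts in replicate 1. Mir199a-1 had 0 counts in both libraries, and Mir365-1 and Mir365-2 had 1 count each in replicate 2 and 0 in replicate 1. Reads matching several places are not counted. Low counts of hairpins with numbered copies, such as those of Mir138, Mir199a and Mir365, therefore need not mean low levels.

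**Figure D4:**
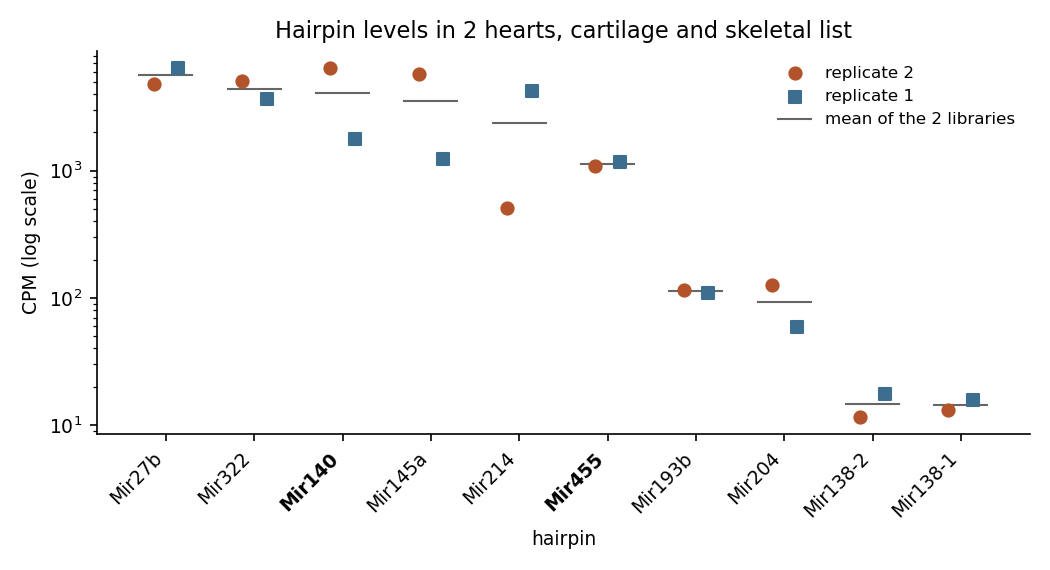
CPM on a log axis of the 10 hairpins of the cartilage and skeletal list that reached 10 counts in both libraries, in replicate 2 (circles) and replicate 1 (squares), with the mean as a line. The symbols of Mir140 lie apart at 6397 and 1766 CPM, and those of Mir455 nearly meet at 1080 and 1162 CPM.

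Some lists of other cell types of the heart also differed in sum between the libraries. Smooth muscle and pericyte hairpins (Mir143 and Mir145a, 2 of 2 found in both) summed to 48287 CPM in replicate 2 and 29354 CPM in replicate 1. The striated muscle list, with 9 of 9 matched and 4 detected, summed to 8314 CPM in replicate 2 and 4499 CPM in replicate 1. Mir208a carried this difference and was the 1 hairpin of the list at least 2-fold higher in replicate 2. Mir499, Mir208b and Mir1a-2 had lower CPM there, Mir1a-2 by more than 2-fold, and the median log2 ratio of the 4 was -0.25. Of the fibroblast hairpins 3 of 5 were detected, and Mir199a-1 was at 0, with reads matching several places left out. The fibroblast list summed to 2424 CPM in replicate 2 and 6244 CPM in replicate 1. Mir214 carried this difference, at 508 CPM in replicate 2 and 4251 CPM in replicate 1, and Mir21a had 1903 CPM in replicate 2 and 1974 CPM in replicate 1. The endothelial sum was 60950 CPM in replicate 2 and 108082 CPM in replicate 1, nearly all of it Mir126a. Erythroid hairpins, 3 of 5 symbols matched, summed to 869 CPM in replicate 2 and 1783 CPM in replicate 1. Leukocyte hairpins, 5 of 7 symbols matched, had nearly equal sums, 6121 CPM in replicate 2 and 6066 CPM in replicate 1. Among them Mir150 (log2 ratio 1.13) and Mir223 (1.03) were higher in replicate 2 and Mir155 (-0.64) was lower, with a list median of 0.76. With Mir146 added, the leukocyte sums were 7203 CPM in replicate 2 and 7438 CPM in replicate 1. Their part in the Mir140 ratio was not tested.

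The brown fat list includes Mir455. Of its 8 hairpins 6 were compared, and 5 of these were within 2-fold between the hearts, as were 72.4% of all 326. The list had 1 hairpin at least 2-fold higher in replicate 2, the epithelial microRNA Mir203, and 0 lower. Its median log2 ratio was 0.21, beside 0.09 over all compared hairpins, and its summed level was mostly Mir378a, at 200864 CPM in replicate 2 and 158989 CPM in replicate 1.

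By position, both members belong to a large class. Of the 326 compared hairpins, 156 lie inside a protein-coding gene on its strand, and 110 of these have no other hairpin within 10 kb. Within the 110, the median of mean CPM was 31.2, and Mir140 ranked 8 and Mir455 ranked 21. In this class 13 of the 110 hairpins were at least 2-fold higher and 13 at least 2-fold lower in replicate 2. Over all 326 hairpins the share was 13.8% in each direction. The median log2 ratio of the class was -0.02 with TMM. The other 216 compared hairpins had a median of mean CPM of 90.6 and 32 in each direction.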

How the data were processed

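MicroRNA-seq libraries from 2 hearts were analysed. The authors deposited unnormalised counts for each annotated hairpin, made on mm10 with GENCODE M21, per the file headers of the accompanying notes. The aligner is not given in the sources used here. Counts on the hairpin's own strand were used. Rows naming no hairpin stayed out of the library sums. Unmapped reads were 11.5% of replicate 2 and 14.1% of replicate 1, and reads in no hairpin 5.64% of replicate 2 and 6.48% of replicate 1. TMM factors came from edgeR 4.0.16 on the 326 hairpins with at least 10 counts in 1 library, and DESeq2 1.42.0 gave alternative size factors (R 4.3.3). Intervals came from scipy 1.17.1. The scaling was tested on simulated counts that held counting noise alone, with about as many hairpins raised as lowered. That setting is simpler than these libraries, so the test cannot tell which scaling suits them. Members and lists were chosen with earlier results of these data known. Named hairpins were Mir140, Mir455, list members with at least 10 counts in both libraries, the 3 neighbours on each side in mean CPM, the 3 closest log2 ratios among hairpins with at least 100 counts, hairpins sharing a seed and the leaders of other lists. Further named hairpins, such as Mir675, Mir203 and Mir133a-1, fall outside this rule and count as chosen after their values were seen.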

Additional observations from a re-analysis of the deposited data

How the results depend on the processing

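Mir140 kept its direction under every scaling, pseudocount and count column tried, with a log2 ratio of 1.86 by total hairpin count, 2.01 by DESeq2 size factors and 1.97 with TMM computed without the 10 highest hairpins, against 2.09. For Mir455 the same ratio was 0.12, with -0.11 by total count and 0.01 with TMM without the 10 highest hairpins, where a change of scaling shifts all hairpins together. The levels depended on the denominator, since Mir140 stood at 13842 and Mir455 at 3577 CPM over sums without the 10 highest hairpins. With all mapped reads as the denominator, Mir140 stood at 1911 and Mir455 at 528 CPM. Mir455 stood at 1586 CPM in the unstranded column, where its own counts were the same and the library sum was smaller. Leaving out each replicate gave 1766 to 6397 CPM for Mir140, 1080 to 1162 CPM for Mir455 and 60.3% to 85.6% for the share of Mir140 in the pair. The median of the cartilage and skeletal list was 0.39 with TMM without the 10 highest hairpins and 0.27 by total count, against 0.50. The median over all compared hairpins moved with it, to -0.02 and -0.14, against 0.09. With a minimum of 1 count, which compares 16 hairpins of the list in place of 12, the list median was 0.39. It was 0.29 with Mir146 added, a matching chosen after seeing the data, which puts 1 more hairpin in the list. Hairpins at least 2-fold higher numbered 26 with a minimum of 50 counts, which leaves fewer hairpins (223 in place of 326). No paired analysis was possible because both libraries belong to 1 group.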
